A study of Mus musculus with 5 samples.

Results

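Mast cells are tissue-resident immune cells that lie along airways, vessels and mucosal surfaces. Their precursors leave the bone marrow and mature in the tissue under Kit ligand, which acts on the receptor tyrosine kinase Kit. Mature cells carry IgE on the high-affinity receptor of which Fcer1a encodes the binding chain, and their granules hold histamine, made by the decarboxylase Hdc, together with carboxypeptidase (Cpa3), chymases (Cma1 and Mcpt4) and tryptase (Tpsb2). These 7 genes were represented by 11 probe sets, a probe set being the short oligonucleotides that together report 1 transcript, out of 12422 on the array. They were chosen as every probe set whose annotation gave exactly 1 symbol and whose symbol, or an older synonym of it, was one of the 7.

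The arrays were Affymetrix mouse expression arrays of total RNA. The labels name the tissue as lung and the animals as A-J mice, given either saline or IL-13 (a T helper cell cytokine) through the trachea. There were 2 saline arrays, with the numbers 6 and 48 in their titles, and 3 IL-13 arrays, with the numbers 6, 18 and 48. The labels give no unit for these numbers and no sex, age or number of animals per array, so arrays are named by treatment and title number. Nothing in the labels says that the arrays came from separate animals, and p-values therefore measure only the spread between these arrays. Each combination of treatment and title number had 1 array.

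Markers of other cell types and tissues differed widely between the arrays. Salivary gland transcripts (7 measured) summed to 101019 on saline 6 and to between 574.1 and 889.2 on the other 4 arrays. Heart atrium transcripts (8 measured) were highest on saline 6 (33195) and IL-13 18 (24086) and lay between 11504 and 18454 elsewhere. Actc1 alone made up most of the sum elsewhere, with 9837, 16250 and 10530 on saline 48, IL-13 6 and IL-13 48. Myl7 read 7547 on saline 6 and 3323 on IL-13 18 but only 129.9 to 224.8 elsewhere, whereas Sln (134.5 to 252.4) was highest on IL-13 6. The surfactant gene Sftpc, a marker of alveolar type II cells, read 17180 on IL-13 18 and 2615 on saline 6 but only 194.3 to 300.5 elsewhere. Of the other measured genes of these cells, Sftpb (2114) and Slc34a2 (2730) were also highest on IL-13 18. On saline 6 they did not all follow Sftpc. Slc34a2 read 251.8 there and 224.3 on IL-13 6, and Sftpd (121.1 to 217.1) was lowest on saline 6 and highest on IL-13 6. Immature thymocyte transcripts (9 measured) summed to 10205 and 16525 with saline and to 3647, 8372 and 3364 under IL-13 in order of title number. Genes of further tissues were bright on every array, although the labels name lung. The thyroid gene Tg read 13170 to 25520 and the parathyroid hormone gene Pth 8658 to 13790. The brown fat gene Ucp1 read 6896 to 16460. Cartilage genes were mixed. Acan (948.4 to 3278), Col9a1 (523.5 to 695.6) and Col9a2 (647.1 to 704.9) were bright on every array. Col2a1 (86.42 to 144.5), Matn3 (41.53 to 150.4) and Hapln1 (37.98 to 108.3) were dim on every array, and Matn1 read 82.9 to 326.9. Club cell transcripts (3 measured), of the airway lining, were bright on every array too, with sums from 34070 to 43411. The share of these tissues in the RNA was not tested. In whole tissue, fewer mast cells and less RNA per mast cell cannot be told apart.

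**Figure D1:**
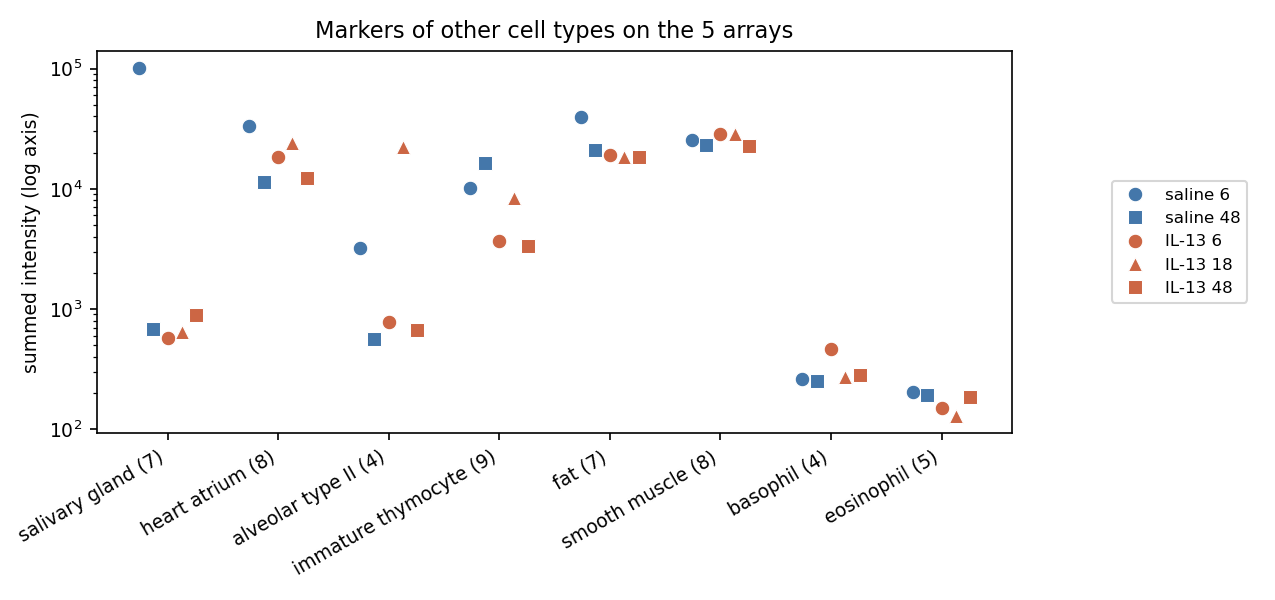
Summed intensity (log axis) of markers of other cell types, with the number of measured genes in brackets, on each of the 5 arrays; every point is 1 array. Saline 6 stands apart in salivary gland transcripts (101019 against at most 889.2) and IL-13 18 in alveolar type II transcripts (22197 against at most 3219).

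Of the 11 probe sets, 5 exceeded the 40th percentile of all values (210) on at least 2 arrays and were tested, and they stood for Kit, Hdc, Tpsb2 and Cma1. The other 6, among them every probe set of Cpa3, Mcpt4 and Fcer1a, were too dim to test. No mast cell probe set passed the comparison between IL-13 and saline (limma, adjusted p under 0.05), where 0.0512% of the 7811 tested probe sets did. At an unadjusted p under 0.05, 1 of the 5 was higher, that of Kit, where 5.29% of all tested probe sets were. For none of the 5 did the 3 IL-13 arrays lie wholly above or wholly below both saline arrays, which happened for 14.8% of tested probe sets in the upward and 11% in the downward direction.

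The 300 bases around the start of a gene (250 before it and 50 after) are shown for Kit and Hdc, both bright on every array, and for Cma1 and Cpa3, granule enzymes whose probe sets were dimmer or disagreed. GATA factors are regulators of mast cell genes. Capitals mark GATAA, a common form of the motif they bind, in either orientation (read as TTATC on the other strand). The sequences are those of RefSeq on GRCm38.p6, written 5′ to 3′ on the strand of the gene. The deposited values name no genome build, and no array value was placed by these coordinates.
Kit, chr5:75574737-75575036, plus strand: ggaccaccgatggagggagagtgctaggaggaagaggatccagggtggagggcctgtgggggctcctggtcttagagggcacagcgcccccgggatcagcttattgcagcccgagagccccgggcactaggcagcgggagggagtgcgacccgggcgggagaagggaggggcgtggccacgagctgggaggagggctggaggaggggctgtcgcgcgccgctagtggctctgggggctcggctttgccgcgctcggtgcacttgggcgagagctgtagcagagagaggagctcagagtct
Hdc, chr2:126618629-126618928, minus strand: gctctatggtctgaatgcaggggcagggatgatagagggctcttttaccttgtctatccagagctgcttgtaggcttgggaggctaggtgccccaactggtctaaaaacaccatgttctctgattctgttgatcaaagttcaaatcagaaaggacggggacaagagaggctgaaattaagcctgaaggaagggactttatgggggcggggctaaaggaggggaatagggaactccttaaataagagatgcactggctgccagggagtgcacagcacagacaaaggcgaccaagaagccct
Cma1, chr14:55944626-55944925, minus strand: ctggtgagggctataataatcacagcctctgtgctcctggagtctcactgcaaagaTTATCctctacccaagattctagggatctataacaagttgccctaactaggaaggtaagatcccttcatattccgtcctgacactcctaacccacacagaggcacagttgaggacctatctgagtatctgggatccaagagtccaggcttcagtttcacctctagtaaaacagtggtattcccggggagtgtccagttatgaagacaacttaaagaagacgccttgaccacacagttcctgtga
Cpa3, chr3:20242132-20242431, minus strand: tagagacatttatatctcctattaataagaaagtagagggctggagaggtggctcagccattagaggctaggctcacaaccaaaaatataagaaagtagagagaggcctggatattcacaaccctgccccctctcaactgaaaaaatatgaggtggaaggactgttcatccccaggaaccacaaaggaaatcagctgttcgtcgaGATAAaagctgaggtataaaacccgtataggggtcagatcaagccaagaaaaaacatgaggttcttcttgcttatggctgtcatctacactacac

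The promoter table held 6 of the 7 genes, and Tpsb2 was not among them. GATAA occurred once each in the windows of Cma1, Cpa3, Mcpt4 and Fcer1a, beginning at -194, -45, -102 and -92 from the annotated start. It was in neither listed window of Kit nor in that of Hdc. Across all 32851 windows of this length, 25.4% held it. The E-box CATGTG, which reads CACATG on the other strand and is one of the sites bound by the mast cell factor Mitf, was found in Fcer1a and in no other of these windows (14.2% of all windows). The E-box CACGTG was in none of them (7.15% of all windows). These are matches of letters, not measured binding sites. Other forms of the GATA motif, such as GATAG, were not searched, so a window without GATAA may still hold one.

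Kit, the growth factor receptor of mast cells and also of melanocytes and blood progenitors, had the largest difference among the tested mast cell probe sets. It read 355.8 on saline 6 and 529.7 on saline 48, and 527.9, 936.0 and 764.3 on IL-13 6, 18 and 48. The groups overlapped, because IL-13 6 lay just below saline 48. The log2 difference was 0.74 (SE 0.30, 95% interval 0.01 to 1.46), which is 1.66-fold with an interval from 1.01-fold to 2.75-fold (limma, unadjusted p 0.0476, adjusted p 0.529). In the pairs with the same title number IL-13 was 1.48-fold higher at 6 and 1.44-fold higher at 48. The saline arrays themselves differed by as much, with saline 48 at 1.49-fold of saline 6.

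Kit was brightest on IL-13 18, the array highest in alveolar type II transcripts, and dimmest on saline 6, the array with salivary transcripts. The atrial sum was high on both of these arrays and highest on saline 6. Leaving out 1 array moved the difference to between 0.45 (without saline 6) and 1.02 (without saline 48). With saline 6 and IL-13 18 both left out, an alternative chosen after the data were seen, the log2 difference was 0.26. The part of the alveolar, salivary and atrial tissues in the result was not tested. Of the other cells that carry Kit, melanocyte markers (5 measured) summed to 1570 and 1147 under saline and 1314, 1302 and 1365 under IL-13. Sox10, also a gene of glia, made up most of that sum and differed by -0.27. The pigment cell genes Dct (0.37) and Pmel (0.40) had all 3 IL-13 arrays above both saline arrays, as had 14.8% of all tested probe sets. The median over Sox10, Dct and Pmel was 0.37, and none passed the threshold. Of the dim pigment cell genes that were not tested, Tyrp1 was highest on saline 6 (62.44) and Tyr on IL-13 48 (84.72). Blood progenitor markers (6 measured) summed to 4587 and 7731 under saline and 3798, 5767 and 4521 under IL-13. Of the 4 tested, Cd34 (0.74) and Flt3 (0.29) had a higher mean and Myb (-1.14) and Gata2 (-0.07) a lower one, and none passed. The part of these cells in the Kit readings was not tested.

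Hdc, which makes histamine from histidine in mast cells and basophils, also had its highest readings on IL-13 18 and IL-13 48. It read 322.1 and 583.0 on saline 6 and 48, and 376.0, 843.2 and 689.2 on IL-13 6, 18 and 48. Both arrays numbered 6 lay below the other 3, and the groups overlapped. The log2 difference was 0.47 (SE 0.41, 95% interval -0.51 to 1.46, adjusted p 0.765, limma). The steps between title numbers were larger than the step between treatments. IL-13 18 was 2.24-fold of IL-13 6, and saline 48 was 1.81-fold of saline 6, whereas IL-13 was 1.17-fold of saline at 6 and 1.18-fold at 48. Leaving out 1 array moved the difference either way, to 0.05 without saline 6 and 0.23 without IL-13 18, and to 0.90 without saline 48 and 0.81 without IL-13 6. With saline 6 and IL-13 18 both left out it turned to -0.20.

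Tpsb2, the tryptase stored on heparin in connective tissue mast cells, was the only granule protease gene with more than 1 tested probe set. On probe set 93622_at it read 955.5 and 756.0 with saline 6 and 48, and 919.1, 1033 and 1138 under IL-13 6, 18 and 48. The range over all 5 arrays was narrow, and IL-13 6 lay below saline 6. The log2 difference was 0.27 (SE 0.19, 95% interval -0.20 to 0.74, adjusted p 0.721, limma). On 92711_at it read 456.8 and 267.3 under saline and 417.3, 426.5 and 449.0 under IL-13. Here the 3 IL-13 arrays were close together, and saline 48 was the lowest array, as on 93622_at. The log2 difference was 0.30 (SE 0.25, adjusted p 0.758, limma). Without saline 48 the log2 difference was -0.08 on 92711_at and 0.10 on 93622_at. The IL-13 array was 0.913 and 0.962 times the saline array at 6, and 1.68-fold and 1.51-fold of it at 48.

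Cma1, a chymase of connective tissue mast cells, gave readings above the floor (55.3, the 20th percentile of all values) on 1 of its 3 probe sets. Probe set 102407_at read 309.2 and 163.8 on saline 6 and 48 and 283.2, 250.1 and 203.2 on IL-13 6, 18 and 48. The saline arrays enclosed all the IL-13 arrays. The log2 difference was 0.11 (SE 0.31, 95% interval -0.62 to 0.85, adjusted p 0.930, limma), and without saline 48 it was -0.35. The other probe sets did not show these levels. Probe set 102408_g_at lay between 19.12 and 25.70 and 102406_at between 3.40 and 11.14, all below this floor, to which lower values were set.

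Cpa3, the mast cell carboxypeptidase, was near the floor and could not be tested. On 102351_at it read 83.25 and 82.46 with saline 6 and 48, and 51.13, 100.3 and 121.8 under IL-13 6, 18 and 48. It was 1.48-fold higher under IL-13 at 48, and at 6 it was at least 1.51-fold lower, the IL-13 value there being below the floor. On 162348_r_at the order was another one, with 65.54 and 25.74 under saline and 79.56, 35.18 and 45.24 under IL-13. The ending r_at marks probes chosen under relaxed rules.

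Mcpt4, the second chymase, and Fcer1a lay below the floor on all 5 arrays, so neither gave a fold. Mcpt4 read 8.99 and 5.61 under saline and 14.80, 10.26 and 32.97 under IL-13 in order of title number. Fcer1a read 36.80 and 12.03 under saline and 44.02, 17.26 and 39.65 under IL-13. Readings this low do not show that the transcripts were missing.

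**Figure D2:**
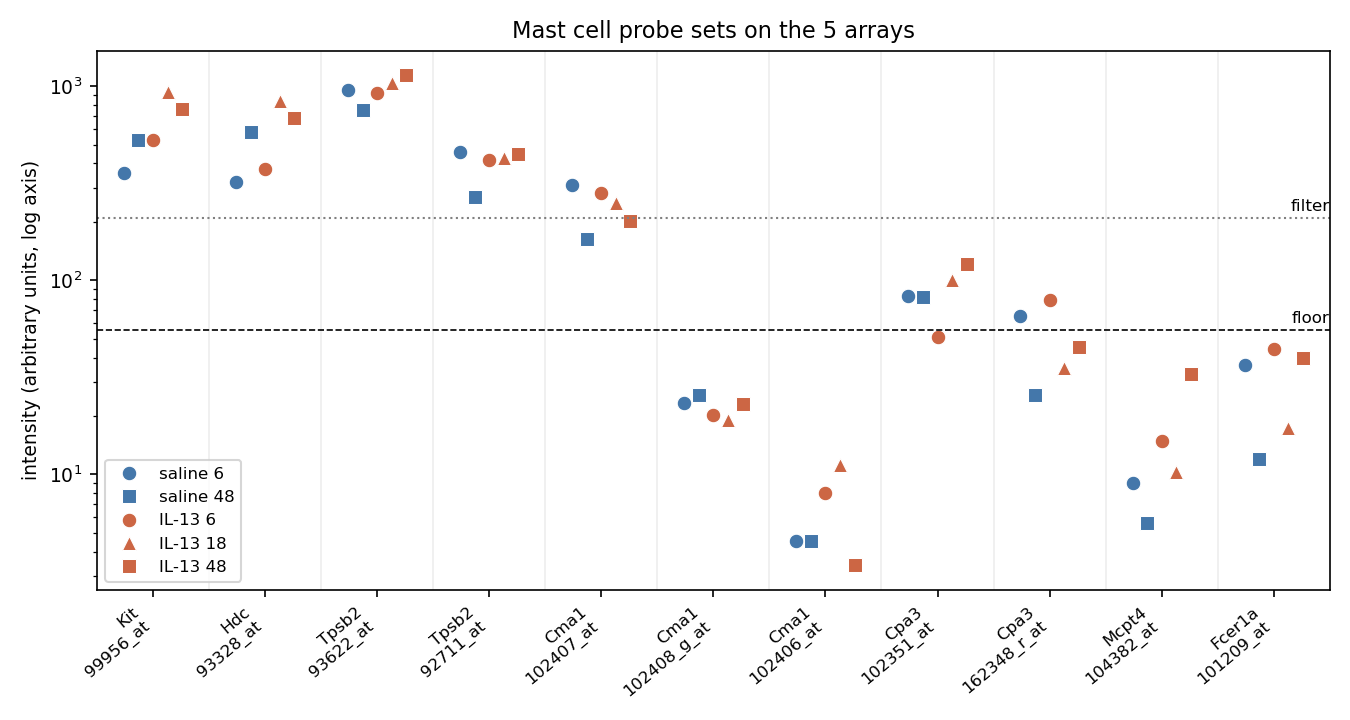
Intensity (log axis) of the 11 mast cell probe sets on each array, 1 point per array; the dotted line marks the filter (210) and the dashed line the floor (55.3). Kit, Hdc, Tpsb2 and 1 Cma1 probe set lie above the floor on every array, and Mcpt4 and Fcer1a below it on every array.

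In the pair of arrays numbered 6, none of the 5 tested mast cell probe sets was at least 2-fold apart, against 7.86% of all tested probe sets. In the pair numbered 48 none was either, against 3.96%. A pair of single arrays has no test. With saline 6 in place of saline 48 as the control of IL-13 48, Kit (2.15-fold) and Hdc (2.14-fold) passed 2-fold. The share of all tested probe sets that passed with this control was not counted, so these 2 folds are a description only. Over the 4 genes with a tested probe set the median log2 difference was 0.37, and over all 5983 tested genes it was 0.03. These 4 genes were the ones bright enough to test, and their median is not that of all 7.

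**Figure D3:**
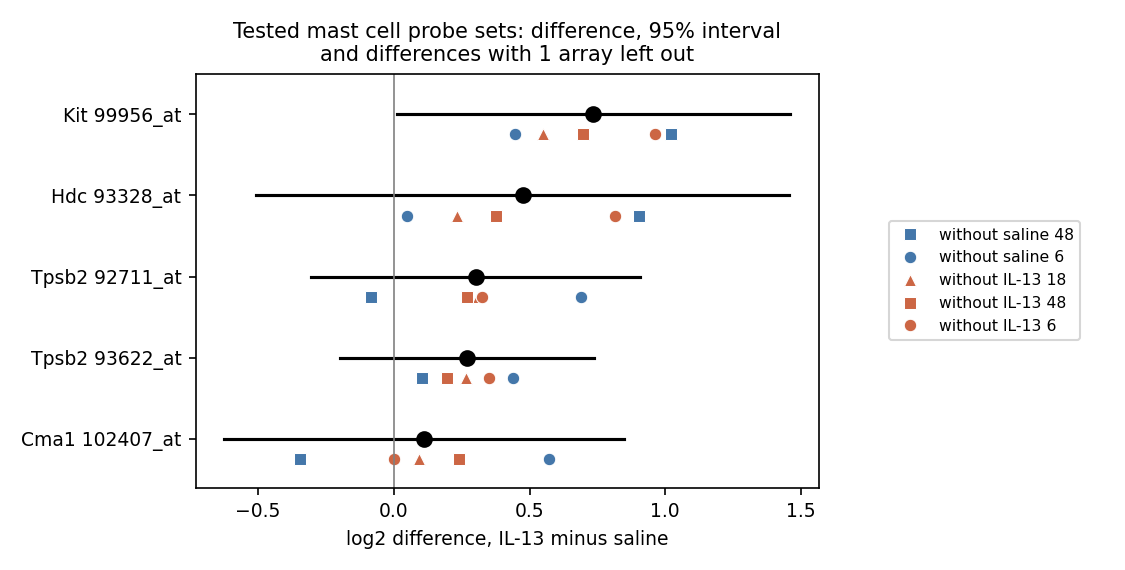
Log2 difference of IL-13 minus saline for the 5 tested mast cell probe sets (black point, with its 95% interval from limma) and, below each, the difference with 1 array left out (coloured points). The interval of Kit runs from 0.01 to 1.46, and leaving out saline 48 moves Cma1 to -0.35.

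Genes whose readings ran most like each member over the 5 arrays were taken by Pearson's r of log2 values, among 1361 probe sets with a gene name and a range of at least 1 on the log2 scale. For Kit they were Limch1 (r 0.99), Bcl6b (0.99) and Bmp5 (0.99). For Hdc they were Pla2g5 (0.99), Prrx2 (0.99) and St6gal1 (0.98). For Tpsb2 they were Ckm (r 1.00), Sypl2 (0.99) and Cd151 (0.98), and for Cma1 Entpd6 (0.99), Rps28 (0.99) and Cyp2c38 (0.99). The muscle creatine kinase gene Ckm, the closest to Tpsb2, read 189.4 and 39.19 under saline and 170.1, 288.1 and 436.6 under IL-13. All points share the same 5 arrays, and with so few arrays a value of this size is a description only.

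Other proteases of mast cell and basophil granules were dim. Of 10 listed, 6 were measured and none was bright enough to test. The brightest was Gzmb, a granzyme of cytotoxic lymphocytes as well as mast cells, which read 180.3 and 124.0 under saline and 17.02, 101.4 and 21.78 under IL-13, lower on all 3 IL-13 arrays. Mcpt8, a basophil protease, read 78.41 to 102.5 over the 5 arrays on the brighter of its probe sets, an r_at set, and was highest on IL-13 18. Mcpt1 and Mcpt2, proteases of mucosal mast cells, reached 89.40 (94729_r_at) and 68.04 (99958_at), both on IL-13 48. The other Mcpt1 probe set, 94728_f_at, was highest on saline 48 at 85.10. The tryptase Tpsab1 lay below the floor on every array. Basophil markers (4 measured) summed to 259.2 and 252.3 under saline and 466.8, 271.1 and 280.8 under IL-13. In the highest sum, that of IL-13 6, Il3ra alone read 210.5, against 53.05 to 112.3 elsewhere. No basophil marker was bright enough to test. Eosinophil markers (5 measured) summed to 202.7 and 192.5 under saline and 150.1, 129.2 and 186.5 under IL-13, and Epx, Prg2 and Il5ra were below the floor on all arrays.

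The IgE receptor and its signalling chain were mostly measured through proteins that other blood cells share. Of 17 genes, 15 were measured and 11 tested, and on the brightest probe set of each gene 4 had a higher and 7 a lower mean, with a median log2 difference of -0.14 and none past the threshold. The receptor's own beta chain, Ms4a2, read 38.74 and 11.28 under saline and 59.66, 15.07 and 47.88 under IL-13, and it was not tested. The inhibitory Fc receptor gene Fcgr2b differed by 0.33 (SE 0.26) and the adapter gene Lcp2 by -1.31 (SE 0.19, adjusted p 0.183, limma). Lcp2 read 533.3 and 493.7 under saline and 226.5, 224.3 and 174.9 under IL-13, with no overlap. The lipid phosphatase gene Inpp5d, a brake on this receptor, fell by 2.37 on the log2 scale on probe set 102884_at (SE 0.19, adjusted p 0.0398, limma), from 342.2 and 255.9 to 35.38, 55.27 and 61.91. The first and second of these IL-13 values lie below the floor and entered the fit as 55.3, so the size of the difference, its SE and the call rest on floored values. The call was lost with the floor at the 10th percentile (-2.58, adjusted p 0.144) and at the 40th (-0.49, 0.523). It was also lost without the filter (-2.37, 0.149), with limma's trend and robust options (-2.37, 0.276) and with title number as a block (-2.34, 0.117). Leaving out arrays ended it too, with saline 6 out (-2.16, 0.168), with any 1 IL-13 array out (-2.42 to -2.34, 0.108 to 0.230) and with saline 6 and IL-13 18 both out (-2.13, 0.174). Its brighter probe set 161678_at differed by -0.35 and did not pass (adjusted p 0.873). Lcp2 and Inpp5d are genes of T cells too. The summed immature thymocyte markers were lower under IL-13 without overlap, but single genes did not all follow the sum. Of the 7 tested, 6 had a lower mean under IL-13, only 4 of them without overlap between the groups, and none passed the threshold. Rag1 had a higher mean (0.28), with 531.9 and 756.3 under saline and 742.5, 898.9 and 679.7 under IL-13. The part of thymocytes in the differences of Lcp2 and Inpp5d was not tested.

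Kit ligand and the signalling chain below Kit had 12 of 14 genes measured and 10 tested, 2 with a higher and 8 with a lower mean, a median of -0.13 and none past the threshold. Kitl, the ligand itself, read 1010 and 1404 with saline 6 and 48 and 1083, 1770 and 1342 under IL-13 6, 18 and 48. It had its highest reading on IL-13 18, as Kit did, and its lowest on saline 6. Its log2 difference was 0.20 (SE 0.27, adjusted p 0.852, limma). The lowest value was that of the kinase gene Pik3cd at -2.33 (SE 0.46, adjusted p 0.274), a gene of leukocytes including T cells. Its second probe set, 92390_at, differed by 0.21.

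Among granule storage and histamine genes, 9 of 16 were measured and 6 tested, with 3 higher, 3 lower, a median of -0.05 and none past the threshold. Srgn, the core protein of the granule proteoglycan in mast cells and other blood cells, read 454.9 and 360.9 under saline and 322.3, 266.8 and 183.3 under IL-13. All 3 IL-13 arrays lay below both saline arrays, at a log2 difference of -0.69 (SE 0.28, adjusted p 0.529, limma). The histamine receptor gene Hrh2 differed by 0.25 (SE 0.32).

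Transcription factors of mast cells had 7 of 10 genes tested, 2 higher and 5 lower, with a median of -0.07. Gata1 differed by 0.91 (SE 0.22, adjusted p 0.339, limma), from 130.6 and 162.8 under saline to 315.4, 226.2 and 288.4 under IL-13. These readings did not overlap, but they come from 161456_f_at, an f_at set whose probes can also take up related transcripts, and the other Gata1 probe set, 102654_at, was dim (39.21 to 113.0) and did not show them. Zfpm1, a partner of Gata1, differed by -0.40 (SE 0.20). Enzymes of leukotriene and prostaglandin synthesis had 4 tested genes, 3 higher and 1 lower, with a median of 0.26. Ptgds was the highest at 0.58 on 102105_f_at (SE 0.17, adjusted p 0.437, limma) and Ltc4s the lowest at -0.14 (SE 0.26). A dimmer Ptgds probe set that was not tested, 92545_f_at, read lower on all 3 IL-13 arrays (161.6, 142.9 and 120.7) than under saline (184.8 and 179.0). Cytokines and receptors that act on mast cells had 16 measured and 4 tested, 2 higher and 2 lower, with a median of -0.13. Csf2rb2 differed by 0.13 (SE 0.46) and Il4ra, a chain shared by the IL-4 and IL-13 receptors, by -0.40 (SE 0.18, adjusted p 0.561, limma). No gene of these 3 lists passed the threshold.

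**Figure D4:**
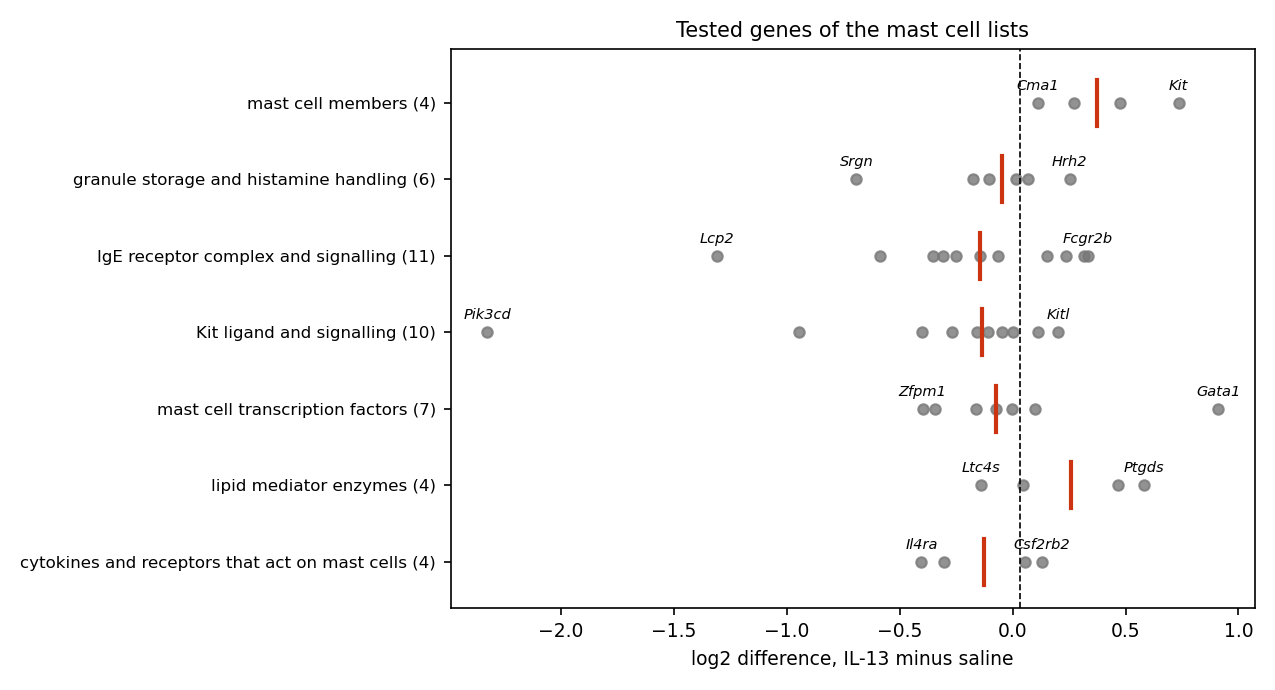
Log2 difference of IL-13 minus saline for every tested gene of the mast cell lists (grey points, 1 per gene, number of genes in brackets), with each list's median (red bar) and the median of all 5983 tested genes (dashed line, 0.03). The member genes run from 0.11 (Cma1) to 0.74 (Kit), and the signalling lists hold the lowest values, Pik3cd at -2.33 and Lcp2 at -1.31.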

How the data were processed

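The values are intensities of 12488 probe sets that the authors deposited in one table for all 5 arrays. The authors had scaled them, since the deposited 2% trimmed mean lies between 800.39 and 800.47 on every array. No source used here gives the software or the background correction. Then 66 control probe sets were dropped and each array was brought to the same 2% trimmed mean. A floor was set at the 20th percentile of all values (55.3) before taking log2. Probe sets brighter than the 40th percentile of all values (210) on 2 or more arrays, 7811 in all, entered lmFit and eBayes (limma 3.58.1, R 4.3.3). The model held treatment alone and the test was two-sided, with Benjamini-Hochberg adjustment over all of them. SE is the moderated standard error. The fit was also run on simulated data with independent noise and no tissue differences between arrays. That run cannot show how the fit performs on arrays that differ as these do. Genes were named from the platform annotation, updated to RefSeq symbols.

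The members, the gene lists and the tests were chosen with earlier results of these data known. Named genes are all member probe sets, the tested gene with the highest and the lowest difference of each mast cell list, list genes past the threshold, and the 3 genes most alike to each tested member. Other genes named here were added from the fixed lists after their values were seen. From the mast cell lists these are Gzmb, Mcpt1, Mcpt2, Mcpt8, Tpsab1, Ms4a2, Il3ra and Gata2. From the marker lists they are Cd34, Flt3, Myb, Sox10, Dct, Pmel, Sftpc, Epx, Prg2, Il5ra, Actc1, Myl7, Sln, Tg, Pth, Ucp1 and Acan. Further ones from the marker lists are Sftpb, Sftpd, Slc34a2, Col2a1, Col9a1, Col9a2, Hapln1, Matn1, Matn3, Tyr, Tyrp1 and Rag1. For a list gene with several probe sets, the one with the highest mean stands for it. Alternatives are in the closing section. Precision is limited by having 5 arrays. Plots used matplotlib 3.10.9.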

Additional observations from a re-analysis of the deposited data

Results flagged for a closer look

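For 3 of the 5 tested mast cell probe sets the pair of arrays numbered 6 and the pair numbered 48 moved in opposite directions, with IL-13 lower than saline at 6 and higher at 48. The log2 difference at 48 exceeded that at 6 by 0.437 for Cma1 (102407_at), by 0.879 for Tpsb2 on 92711_at and by 0.646 for Tpsb2 on 93622_at. These 3 include both probe sets of Tpsb2, and the share of all tested probe sets that moved in opposite directions was not counted. Each pair is 1 array against 1, so this difference was not tested. Saline 48 was the lowest array for all 3 probe sets, at 0.530, 0.585 and 0.791 times saline 6.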

How the results depend on the processing

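No tested mast cell probe set passed the threshold under any of the 15 alternatives to the comparison. Kit kept a positive difference in all 15, from 0.26 to 1.02, with adjusted p from 0.267 to 0.993 and an unadjusted p under 0.05 in 9. The 93622_at probe set of Tpsb2 stayed positive from 0.10 to 0.44. The sign turned for Cma1 with the floor at the 40th percentile (-0.051) and for Cma1 (-0.35) and Tpsb2 92711_at (-0.085) without saline 48. Hdc turned to -0.20 with saline 6 and IL-13 18 both left out. Cma1 and Tpsb2 92711_at gave no value with the filter at the 60th percentile (534). Leaving out 1 array gave 0.05 to 0.90 for Hdc, -0.35 to 0.57 for Cma1 and -0.085 to 0.69 for Tpsb2 92711_at. Over all tested probe sets the 4 calls became 0 under either other floor (10th and 40th percentile), without a filter, and under limma's trend and robust options. They became 1 with the filter at the 60th percentile and 1 with saline 6 and IL-13 18 both left out, and 0 to 13 with 1 array left out. With title number as a replicate block over the 4 arrays of 6 and 48 there were 0 calls, and Kit differed by 0.55 and Hdc by 0.23. Differences between the arrays 6 and 48 correlated at 0.13 between treatments over tested probe sets, with 2 pairs. This value cannot show whether the numbers pair the arrays, because the saline difference also holds the salivary transcripts of saline 6. The main model did not take the numbers to pair the arrays. In the pair at 48, 2 mast cell probe sets passed 1.5-fold and 2 passed 2-fold with saline 6 as control. Neither count has a share over all tested probe sets to be read against. The cause of these changes was not tested.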
